A study of Mus musculus with 20 samples.

Results

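The 9 genes Magel2, Ndn, Snrpn, Peg3, Dlk1, Meg3, Grb10, Asb4 and Nnat are imprinted genes with a known part in the hypothalamic control of feeding, growth or metabolism. They were taken by name, and all 9 were found among the 23129 named genes of the count table and passed the filter on low counts, which left 13237 genes. RNA was sequenced from AgRP neurons of C57BL/6 mice aged P25 to P30, sorted by the red fluorescence of tdTomato, with 1000 neurons per sample. There were 4 groups of 5 libraries. Fasted and fed Phf6 cKO mice carried Phf6 flox/y, AgRP-Cre/+ and Ai9/+, and fasted and fed WT littermates carried AgRP-Cre/+ and Ai9/+ without the floxed allele. The genotype flox/y makes the cKO mice male, and the labels do not give the sex of the WT mice. Fasted mice had no food overnight from 5 pm, with water left in place. The Cre allele and the fluorescent reporter were thus shared by every group, and the same driver set both the deletion and the sort. The labels number the libraries within each group and do not say whether neurons of several mice were pooled, so p-values measure the spread between libraries.

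Imprinted genes are expressed mainly from the allele of 1 parent, a state set by DNA methylation in the germ line. Magel2, Ndn and Snrpn are paternally expressed genes of the region lost in Prader-Willi syndrome, which in people brings insatiable appetite, and AgRP neurons, which release AgRP, NPY and GABA, are the neurons whose firing drives feeding. Peg3 and Dlk1 are paternally expressed, Meg3 and Asb4 maternally expressed, Grb10 is paternally expressed in neurons, and Nnat is a paternally expressed gene inside an intron of Blcap. The counts used here do not separate the parental alleles, so every value is the sum of both.

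The libraries held 8494499 to 10000278 counts in fasted mice and 10604977 to 13573524 counts in fed mice. Phf6, the deleted gene, ran from 53.6 to 71.3 CPM (counts over the scaled size of the library) in fasted cKO, 65.0 to 76.3 in fed cKO, 116 to 143 in fasted WT and 264 to 292 CPM in fed WT. The highest cKO library lay below the lowest WT library, and fasting itself lowered Phf6 in WT by 1.11 ± 0.070 on the log2 scale (± SE, adjusted p = 1.42e-13). Here and in all that follows, a gene was called where its edgeR p, adjusted over all tested genes, was under 0.05. The 5 comparisons were fasting in cKO, fasting in WT, cKO against WT in fed mice, cKO against WT in fasted mice, and their interaction. All 10 AgRP neuron markers were present in every group. Agrp averaged 11310 ± 1548 CPM in fasted cKO, 5066 ± 399.8 in fed cKO, 14930 ± 2487 in fasted WT and 4554 ± 185 CPM in fed WT (SD, n = 5 each).

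Replicates 1 and 2 of both fasted groups stood apart from replicates 3 to 5 over all genes, and for several of the 9 members. The chi-square of the counts per degree of freedom, 1 for sampling noise alone, was taken between pairs of libraries. In fasted WT it was 15.7 to 24.3 across these sets and 3.81 to 5.89 within them. Fasted cKO had 8.90 to 12.8 across and 3.64 to 5.52 within. The main fit has no term for this split. In replicates 1 and 2, the values of Meg3 and Grb10 were above, and those of Asb4 below, all values of replicates 3 to 5 in both genotypes. In fasted WT replicates 1 and 2 were also lowest for Ndn and Peg3 and highest for Nnat. The labels name no batch. Markers of the sorted neurons followed the same split in both genotypes. In fasted cKO the 10 AgRP neuron markers summed to 62800 and 69300 CPM in replicates 1 and 2. Replicates 3 to 5 had 50960 to 55080 CPM. In fasted WT these markers summed to 84960 and 84140 CPM in replicates 1 and 2, and to 59620 to 61080 CPM in replicates 3 to 5. The 10 tanycyte and ependyma markers summed to 53.3 and 46.7 CPM in replicates 1 and 2 of fasted cKO, against 46.6 to 64.5 CPM in replicates 3 to 5, and to 65.9 and 63.9 CPM in replicates 1 and 2 of fasted WT, against 39.6 to 51.0 CPM in replicates 3 to 5. The 8 oligodendrocyte markers summed to 49.4 to 65.5 CPM in fasted cKO, 82.6 to 104 in fed cKO, 49.1 to 73.5 in fasted WT and 90.6 to 104 CPM in fed WT, with Cldn11 at 0 in both fasted groups and Ermn at 0 in fasted WT. Other sums were apart between the fed genotypes. The 9 microglia and macrophage markers summed to 35.03 to 42.6 CPM in fed cKO and 25.1 to 31.5 CPM in fed WT, with Tmem119 and C1qa at 0 in both and Cx3cr1 at 0 in fed WT. The 10 AgRP neuron markers summed to 27130 to 31760 CPM in fed cKO and 21110 to 23210 CPM in fed WT. Most of that sum was Npy, with 23470 ± 1471 CPM in fed cKO and 16670 ± 648 CPM in fed WT (SD, n = 5 each). Npy was itself called higher in fed cKO, by 0.49 ± 0.092 on the log2 scale (edgeR adjusted p = 0.000537). The 5 markers of KNDy neurons summed to 23.6 to 59.0 CPM in fasted cKO, 16.1 to 23.0 in fed cKO, 33.7 to 60.3 in fasted WT and 11.4 to 15.3 CPM in fed WT, apart in the fed genotypes and with fasting in both, with Tac2 at 0 in fed cKO and both WT groups and Kiss1 and Tacr3 at 0 in fed cKO. The 13 markers of other hypothalamic neurons summed to 562 to 1194 CPM in fasted cKO, 185 to 370.2 in fed cKO, 417 to 1083 in fasted WT and 296 to 506 CPM in fed WT, with Fezf1 and Nr5a1 at 0 in every group, Pmch at 0 in both WT groups and Ghrh at 0 in fasted WT. The part of these cells in the members' values was not tested. In bulk RNA, fewer cells of a type and less RNA per cell cannot be told apart.

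The upstream sequences are shown because several of the genes share a short motif next to their start. A table of RefSeq promoters (GRCm38.p6) holds 15 start sites of the 9 genes, and 4 motifs were searched on both strands in the 250 bases before each. The RefSeq spans of Dlk1, Peg3 and Grb10 reach further upstream than these starts, and windows before other starts were not searched. They were CGCATGCG, the core of the palindrome bound by NRF1, TGACGTCA, the full cyclic AMP response element bound by CREB proteins, GGGGCCCC, a motif of the imprinted factor Zac1, and GGGCGG, the GC box bound by SP1. The motifs were chosen after the sequences had been read. Capitals mark the matches, and each sequence runs 5′ to 3′ on the strand of its gene.
Ndn (chr7:62348027-62348276, plus strand): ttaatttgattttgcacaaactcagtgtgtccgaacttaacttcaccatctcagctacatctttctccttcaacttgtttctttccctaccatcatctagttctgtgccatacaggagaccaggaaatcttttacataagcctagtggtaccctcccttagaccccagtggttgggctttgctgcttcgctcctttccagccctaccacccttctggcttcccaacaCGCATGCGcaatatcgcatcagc
Nnat (chr2:157559828-157560077, plus strand): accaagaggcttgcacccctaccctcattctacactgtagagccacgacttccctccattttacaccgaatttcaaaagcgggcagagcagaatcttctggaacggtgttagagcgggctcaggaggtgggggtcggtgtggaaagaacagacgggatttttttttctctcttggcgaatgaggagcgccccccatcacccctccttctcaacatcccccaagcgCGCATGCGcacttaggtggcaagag
Snrpn (chr7:60140226-60140475, minus strand): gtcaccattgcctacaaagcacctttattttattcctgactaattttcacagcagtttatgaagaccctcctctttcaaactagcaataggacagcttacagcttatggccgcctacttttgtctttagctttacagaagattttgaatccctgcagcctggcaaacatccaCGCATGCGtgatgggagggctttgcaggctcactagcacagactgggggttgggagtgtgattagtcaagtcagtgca
Peg3 (chr7:6730420-6730669, minus strand): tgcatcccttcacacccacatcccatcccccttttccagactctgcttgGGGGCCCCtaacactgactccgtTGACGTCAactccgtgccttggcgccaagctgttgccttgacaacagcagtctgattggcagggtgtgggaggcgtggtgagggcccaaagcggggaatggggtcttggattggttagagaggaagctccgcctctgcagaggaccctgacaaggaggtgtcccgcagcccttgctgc
Meg3 (chr12:109540746-109540995, plus strand): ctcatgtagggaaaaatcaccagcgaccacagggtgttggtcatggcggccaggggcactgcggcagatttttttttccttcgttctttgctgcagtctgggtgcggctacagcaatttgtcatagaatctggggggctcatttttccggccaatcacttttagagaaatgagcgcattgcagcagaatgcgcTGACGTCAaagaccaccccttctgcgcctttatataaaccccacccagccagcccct
Magel2 (chr7:62376729-62376978, plus strand): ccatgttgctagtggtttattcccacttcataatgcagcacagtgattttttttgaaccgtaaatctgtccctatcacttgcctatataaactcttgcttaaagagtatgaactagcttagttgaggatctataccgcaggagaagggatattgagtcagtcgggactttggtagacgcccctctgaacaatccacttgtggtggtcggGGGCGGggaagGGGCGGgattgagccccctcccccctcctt

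CGCATGCG stood 15 bases before the start of Ndn and 17 bases before that of Nnat. Snrpn had it in 3 of its 4 windows, 55, 63 and 70 bases before the start, and the one printed is that with 70. These 3 windows are closely alike in sequence, so they are not separate matches. All 3 lie further upstream than the window without the motif (chr7:60005200-60005449). That window lies directly before the RefSeq span of Snurf, which on this strand starts at base 60005199. This motif was in 1.55% of the 32851 windows of the same length before RefSeq starts. TGACGTCA lay 170 bases before Peg3 and 49 bases before Meg3, and it was likewise in 1.55% of all windows. Peg3 also held GGGGCCCC, 193 bases before its start, against 0.889% of all windows. The Peg3 window covers the start of Usp29 on the opposite strand, which RefSeq places at base 6730559. GGGCGG occurred 2 times before Magel2 and 5 times before Grb10, and 32.7% of all windows had it. The windows searched for Dlk1 and Asb4 held none of the 4 motifs. The Grb10 window that holds them had 40 CpG sites, more than 98.7% of all windows, against a median of 6 over all windows. The RefSeq start of Ndn lies inside the longer GENCODE span of the gene given further on. These matches describe letters in the reference and were not tested for binding.

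Ndn was by far the most abundant of the 9. Per kilobase of exon, it averaged 813 CPM in fasted cKO, 953 in fed cKO, 858 in fasted WT and 859 CPM per kb in fed WT, where it ranked 21 among the 12713 tested genes with a known length. Ndn encodes necdin, a MAGE-family protein of neurons that have left the cell cycle. In fed WT the order of the others by CPM per kb was Asb4 with 104, Dlk1 with 98.1, Nnat with 53.7, Peg3 with 35.6, Magel2 with 21.9, Meg3 with 19.9, Grb10 with 10.7 and Snrpn with 0.605. The ranges of neighbours in that order overlapped between Asb4 and Dlk1 and between Magel2 and Meg3, and the other neighbours lay apart. The order was not the same in every group. Asb4 stood clear above Dlk1 in fed cKO, with 144 against 98.8 CPM per kb, whereas both overlapped in fasted cKO, fasted WT and fed WT. Peg3 and Magel2 were apart in both fed groups and overlapped in both fasted groups. The length used is that of all annotated exon bases, 18089 for Meg3 and 4631 for Magel2, so the order depends on the annotation. By CPM without length, Meg3 had 360 and Magel2 101 in fed WT.

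**Figure D1:**
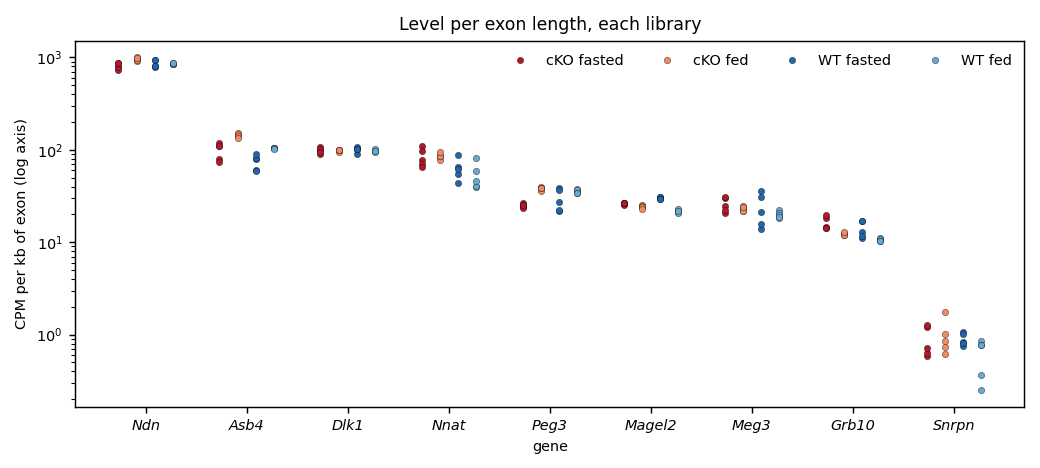
CPM per kilobase of exon (log axis) of the 9 genes in every library, ordered by their mean in fed WT. Each point is 1 library, with fasted cKO, fed cKO, fasted WT and fed WT from left to right within each gene. Ndn lies above all others and Snrpn below all others.

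The low level of Snrpn concerns a gene whose reads cannot be assigned with certainty. Snrpn (chr7:59982495-60140219, minus strand, GENCODE M21) encodes SmN, the neuronal splicing protein of the Prader-Willi region, on the same transcript as Snurf. It was counted 10 to 24 times per library in fasted cKO, 19 to 43 times in fed cKO, 14 to 20 times in fasted WT and 7 to 27 times in fed WT. Snurf had no count in any library, and 100% of its annotated exon bases lie in Snrpn exons on the same strand. Snrpn shares 34.1% of its exon bases with other genes, 27.3% with Gm38393 alone. No source used here says how reads over shared exons were counted, and the Snrpn values are uncertain as a measure of the transcript. None of the 5 comparisons called Snrpn, with log2 fold changes between -0.71 ± 0.52 and 0.70 ± 0.36.

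Magel2 (chr7:62377010-62381640, plus strand, a gene of 1 exon) encodes a MAGE protein that works with the ubiquitin ligase TRIM27 to steer WASH and retromer traffic from endosomes. Magel2 had 118, 124, 122, 122 and 123 CPM in fasted cKO and 114, 118, 115, 113 and 106 CPM in fed cKO. In fasted WT it had 139, 141, 141, 136 and 136 CPM, and in fed WT 99.5, 104, 106, 97.2 and 100.1 CPM. With TMM scaling no 2 of the 4 groups overlapped, and the order was fasted WT, fasted cKO, fed cKO and fed WT from high to low. Some gaps were very narrow. The lowest fasted cKO library had 117.8 CPM and the highest fed cKO library 117.5 CPM. The lowest fed cKO library had 106.4 CPM and the highest fed WT library 105.7 CPM. The TMM factors were 0.902 to 0.950 in fasted and 1.06 to 1.11 in fed libraries. The first gap lies between fasted cKO replicate 1, with 942 of 8542250 counts, and fed cKO replicate 2, with 1656 of 13109787. Over library totals alone the fed library is the higher of these, so fasted cKO no longer lies wholly above fed cKO. Whether the gaps hold under the remaining scalings was not tested. Of the 13237 tested genes, 52 (0.393%) had 4 groups without any overlap, and Magel2 was the only member among them. The whole span between the groups was small, with means of 122 ± 2.31 in fasted cKO, 113 ± 4.13 in fed cKO, 139 ± 2.70 in fasted WT and 101 ± 3.48 CPM in fed WT (SD, n = 5 each).

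With fasting, Magel2 rose in WT by 0.45 ± 0.051 on the log2 scale, 1.37-fold (edgeR quasi-likelihood test, adjusted p = 1.18e-08). In cKO the difference was 0.11 ± 0.051 and missed the threshold (adjusted p = 0.0830). The response to fasting was 0.35 ± 0.072 smaller in cKO than in WT on the log2 scale, and this interaction passed the test (adjusted p = 0.0012). It ran from -0.39 to -0.30 over all alternatives, with adjusted p of at most 0.00739. The genotype differences had opposite signs in the feeding states. Magel2 was 0.16 ± 0.051 higher in fed cKO than in fed WT (adjusted p = 0.0439) and 0.19 ± 0.051 lower in fasted cKO than in fasted WT (adjusted p = 0.00961). The fed difference missed the threshold when any of 9 of the 10 libraries was left out, with adjusted p from 0.0521 to 0.114, and without a filter on low counts (0.122). The fasted difference missed it with only the fasted groups in the fit (adjusted p = 0.0583) and with fasted replicates 1 and 2 only (0.0901). With offsets for GC content and exon length the fasted genotype difference was -0.11 (adjusted p = 0.153) and Magel2 rose with fasting in cKO too, by 0.47 (adjusted p = 6.11e-08).

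**Figure D2:**
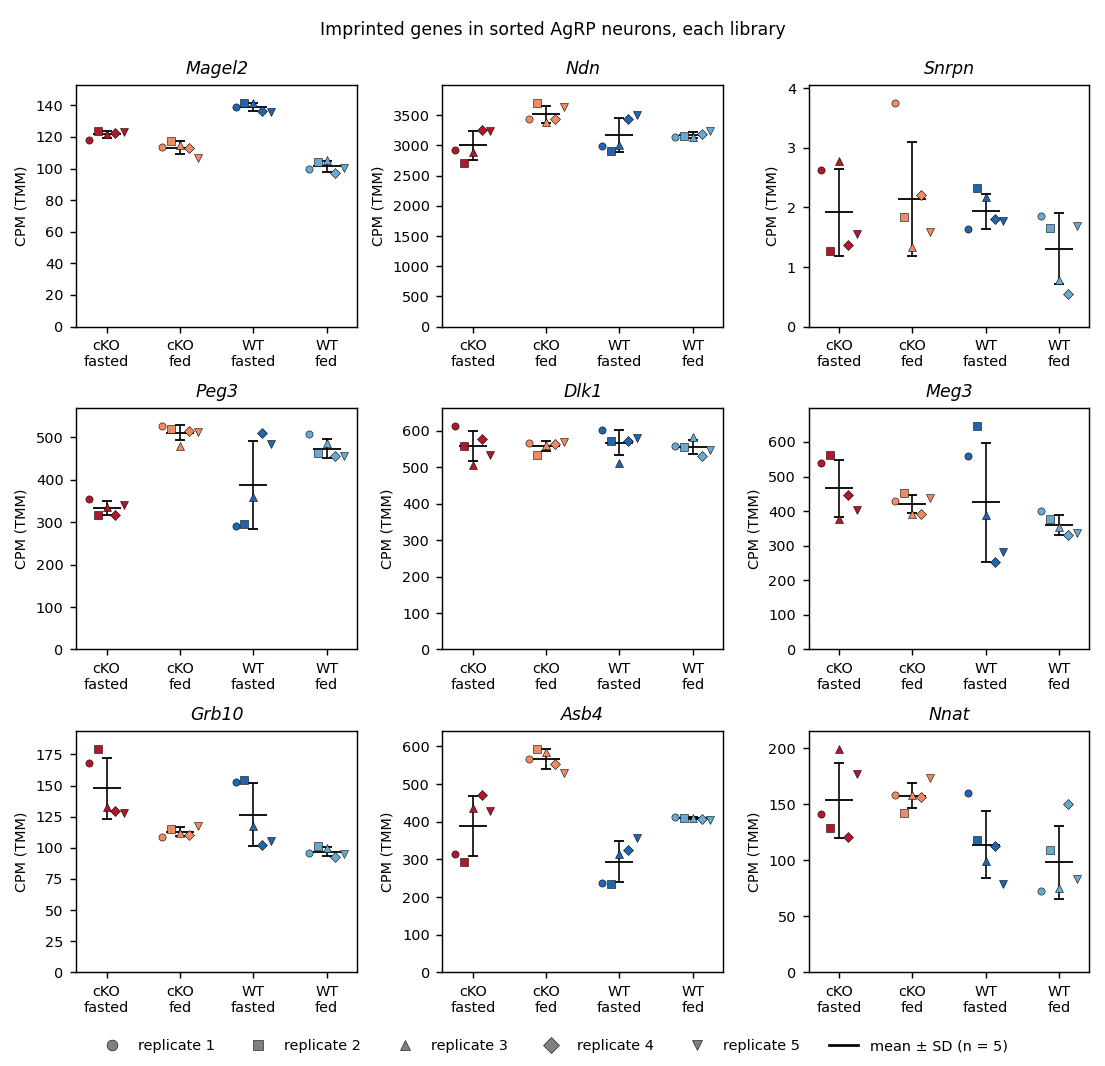
CPM of each of the 9 genes in every library (TMM scaling, linear axes from 0), with fasted cKO, fed cKO, fasted WT and fed WT from left to right. Point shapes give the replicate number, and lines give mean ± SD of 5 libraries. The 4 groups of Magel2 do not overlap, Dlk1 is level across groups, and fasted replicates 1 and 2 stand apart for Meg3, Grb10 and Asb4.

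Ndn lies next to Magel2 (chr7:62346569-62350262, plus strand) and moved in another way. It had 2920, 2712, 2886, 3249 and 3242 CPM in fasted cKO, and 3432, 3701, 3382, 3445 and 3636 CPM in fed cKO. Fasted WT had 2990, 2904, 3005, 3442 and 3496 CPM, and fed WT 3136, 3155, 3135, 3192 and 3245 CPM. Every fasted cKO library was below every fed cKO library, while fasted WT spread to both sides of fed WT. In cKO, Ndn fell by 0.23 ± 0.054 on the log2 scale with fasting (adjusted p = 0.000797), and in WT the difference was -0.0023 ± 0.054 (adjusted p = 0.976, 95% interval -0.11 to 0.10). That WT value rests on the split of the fasted libraries, being -0.12 (adjusted p = 0.0064, called) with fasted replicates 1 and 2 only and 0.066 (adjusted p = 0.169) with replicates 3 to 5 only. The interaction was -0.23 ± 0.077 (adjusted p = 0.0407), and it missed the threshold in 13 of 20 leave-outs of 1 library, with adjusted p from 0.0511 to 0.0935. Fed cKO libraries lay above all fed WT libraries by 0.15 ± 0.054 without passing the test (adjusted p = 0.0816).

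Peg3 (chr7:6703892-6730431, minus strand) encodes a large zinc finger protein, and mice that lack it were described with altered feeding and body fat. It had 355, 318, 335, 316 and 340.1 CPM in fasted cKO, and 527, 520.3, 480.4, 516 and 513 CPM in fed cKO. In fasted WT it had 292, 295, 361, 511 and 486 CPM, and in fed WT 508, 463, 487, 456 and 457 CPM. All 5 fasted cKO libraries lay far below all fed cKO libraries, whereas fasted WT split, with replicates 1, 2 and 3 low and replicates 4 and 5 at or above the fed level. In cKO, Peg3 fell by 0.62 ± 0.10 on the log2 scale with fasting, 1.54-fold (adjusted p = 1.17e-05). In WT it fell by 0.29 ± 0.10 (adjusted p = 0.0186), a call that was lost without fasted replicate 1 (adjusted p = 0.0731), without fasted replicate 2 (0.0714), with GC and length offsets (0.145) and with only the WT groups in the fit (0.0825). It was -0.71 (adjusted p = 4.39e-13) with fasted replicates 1 and 2 only and -0.066 (adjusted p = 0.385) with replicates 3 to 5 only. The interaction was -0.33 ± 0.15 (adjusted p = 0.115) with all libraries and -0.56 with fasted replicates 3 to 5 only (adjusted p = 1.09e-05), but had the opposite sign, 0.10, with replicates 1 and 2 only (adjusted p = 0.389). Fasted cKO against fasted WT gave -0.23 with all libraries (adjusted p = 0.128). This difference was called in opposite directions in the 2 sets. It was 0.21 with fasted replicates 1 and 2 only (adjusted p = 0.0336). With replicates 3 to 5 only it was -0.46 (adjusted p = 7.76e-06).

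Usp29 starts beside Peg3 on the opposite strand, and both are paternally expressed. It averaged 144 ± 13.9 CPM in fasted cKO, 108 ± 4.16 in fed cKO, 151 ± 8.89 in fasted WT and 91.4 ± 7.30 CPM in fed WT (SD, n = 5 each). With fasting Usp29 rose by 0.41 ± 0.068 in cKO (adjusted p = 1.11e-05) and by 0.72 ± 0.068 in WT (adjusted p = 4.14e-10), on the log2 scale, so the neighbours moved in opposite directions in both genotypes, within the limits given above for Peg3 in WT. Usp29 shares 14.8% of its exon bases with other genes, chiefly the antisense Zim3, and neither library kit marks the strand.

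**Figure D3:**
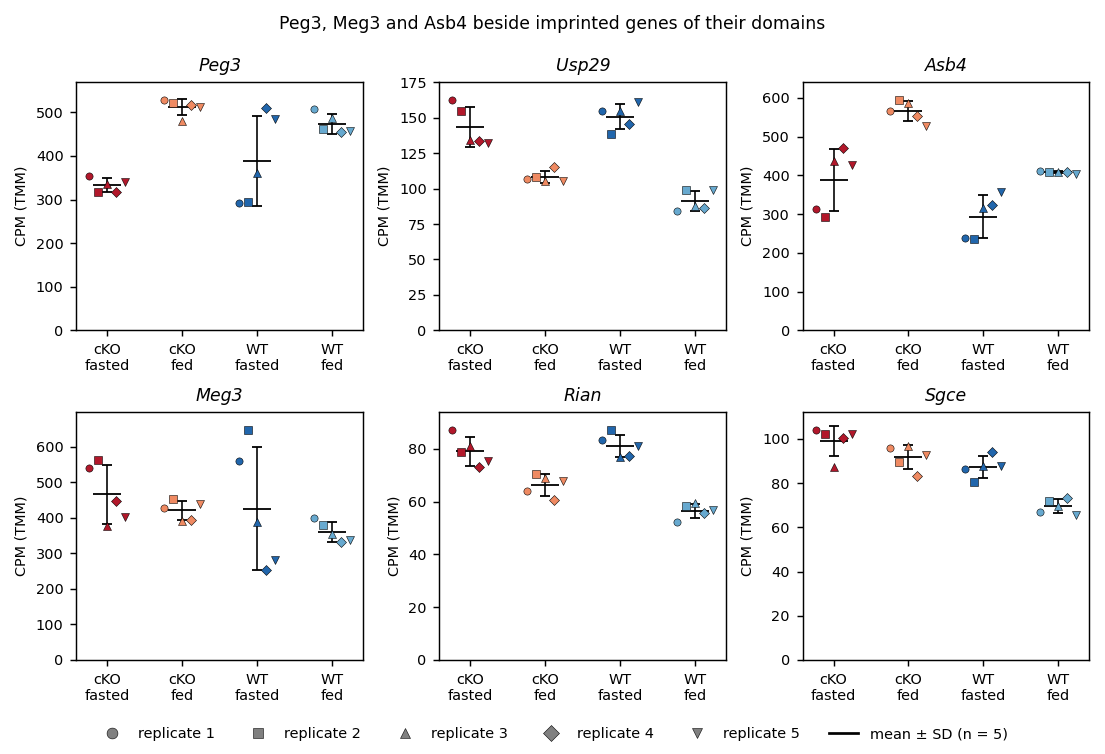
CPM in every library of Peg3, Asb4 and Meg3 and of Usp29, Rian and Sgce, imprinted genes of the same 3 domains (linear axes from 0, fasted cKO, fed cKO, fasted WT and fed WT from left to right). Lines give mean ± SD of 5 libraries. Within each genotype Usp29 is higher in every fasted library than in any fed library, and Peg3 is lower in every fasted cKO library than in any fed cKO library.

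Dlk1 (chr12:109452823-109463336, plus strand) encodes a transmembrane relative of Notch ligands. It had 614, 559.9, 507, 577 and 535 CPM in fasted cKO, and 568, 534, 560.3, 563 and 569 CPM in fed cKO. Fasted WT had 604, 571, 512, 573 and 580.4 CPM, and fed WT 558, 556, 583, 531 and 547 CPM. All 4 groups overlapped, and none of the 5 comparisons called Dlk1 by edgeR. Its log2 fold changes were bounded closely, with a 95% interval of -0.10 to 0.10 for fasting in cKO and -0.070 to 0.14 for fasting in WT. With GC and length offsets, however, Dlk1 rose with fasting by 0.27 in cKO (adjusted p = 0.000146) and by 0.25 in WT (adjusted p = 0.000347).

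Meg3 (chr12:109541001-109571726, plus strand) is a long noncoding RNA expressed from the maternal chromosome, on which Dlk1 is silent. It had 540.1, 561, 377, 448 and 403 CPM in fasted cKO, and 429, 451, 392, 393 and 438 CPM in fed cKO. In fasted WT it had 559.8, 646, 389, 252 and 282 CPM, and in fed WT 399.7, 378, 354, 332 and 336 CPM. Replicates 1 and 2 were the highest of both fasted groups, and in WT the other fasted libraries lay within or below the fed range. With all libraries fasting gave 0.15 ± 0.16 in cKO (adjusted p = 0.470) and 0.24 ± 0.16 in WT (adjusted p = 0.205), on the log2 scale. With GC and length offsets both were called, at 0.34 in cKO (adjusted p = 0.0494) and 0.36 in WT (adjusted p = 0.0315). In cKO, fasted replicates 1 and 2 alone gave 0.39 (adjusted p = 3.72e-06) and replicates 3 to 5 alone -0.037 (adjusted p = 0.728). In WT, fasted replicates 1 and 2 alone gave 0.73 (adjusted p = 4.67e-12) and fasted replicates 3 to 5 alone gave -0.22 (adjusted p = 0.0170), and without replicate 4 the value was 0.38 (adjusted p = 0.0248). Meg3 shares 8.29% of its exon bases with other genes.

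Rian and Mirg, noncoding RNAs further along the maternal transcript of the Dlk1-Meg3 domain, were called with fasting. Of the 4 tested genes of the domain beside Dlk1 and Meg3, 2 rose and 1 fell in cKO, and 3 rose and 1 fell in WT. Rian averaged 79.1 ± 5.45 CPM in fasted cKO, 66.3 ± 4.05 in fed cKO, 81.2 ± 4.17 in fasted WT and 56.5 ± 2.67 CPM in fed WT (SD, n = 5 each). It rose with fasting in WT by 0.52 ± 0.067 on the log2 scale (adjusted p = 1.18e-07), and by 0.57 with fasted replicates 1 and 2 only and 0.48 with replicates 3 to 5 only. Mirg rose with fasting in cKO by 1.5 ± 0.24 (adjusted p = 5.24e-06), at 15.7 ± 6.72 CPM in fasted cKO and 5.54 ± 0.874 CPM in fed cKO. Its means in WT went the same way, with 12.75 ± 3.10 CPM in fasted and 4.75 ± 1.44 CPM in fed mice.

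Grb10 (chr11:11930508-12038683, minus strand) encodes an adaptor that binds the insulin and IGF1 receptors and restrains their signal. It had 168, 179.5, 133, 129.9 and 128 CPM in fasted cKO, and 109, 115, 112, 110.2 and 118 CPM in fed cKO. In fasted WT it had 153, 155, 118, 102 and 105 CPM, and in fed WT 95.8, 101, 99.8, 93.0 and 94.8 CPM. Every fasted library was above every fed library of its genotype, and replicates 1 and 2 were the highest in both fasted groups. With fasting Grb10 rose by 0.39 ± 0.10 in cKO (adjusted p = 0.00194) and by 0.38 ± 0.10 in WT (adjusted p = 0.00189), on the log2 scale. With fasted replicates 3 to 5 only, the rises were 0.21 in cKO (adjusted p = 0.00258) and 0.17 in WT (adjusted p = 0.015). The interaction was 0.0051 ± 0.14, with a 95% interval of -0.28 to 0.29, and the genotype differences of 0.22 ± 0.10 in fed and 0.22 ± 0.10 in fasted mice did not pass the test. Every fed cKO library was above every fed WT library, and the fed difference was called with only the fed groups in the fit (adjusted p = 0.001). The fasted difference was 0.26 with fasted replicates 3 to 5 only (adjusted p = 0.00311, called). With replicates 1 and 2 only it was 0.19 (adjusted p = 0.0916).

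Asb4 (chr6:5383386-5433022, plus strand) encodes the substrate-binding subunit of a cullin-based ubiquitin ligase that is concentrated in hypothalamic feeding neurons. It had 314, 294, 436, 470 and 428 CPM in fasted cKO, and 568, 594, 586, 553 and 528 CPM in fed cKO. In fasted WT it had 238, 235, 315, 325 and 357 CPM, and in fed WT 412, 410.1, 409.5, 408 and 404 CPM. Within each genotype every fasted library was below every fed library, and every fed cKO library was above every fed WT library. Fasting lowered Asb4 by 0.54 ± 0.11 in cKO (adjusted p = 8.88e-05) and by 0.48 ± 0.11 in WT (adjusted p = 0.000332), on the log2 scale. The fall was 0.34 in cKO and 0.30 in WT with fasted replicates 3 to 5 only, each past the threshold, against 0.90 and 0.81 with replicates 1 and 2 only.

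Asb4 was also higher in cKO than in WT in both feeding states. The difference was 0.47 ± 0.11 on the log2 scale in fed mice, 1.38-fold (adjusted p = 0.00386), and 0.40 ± 0.11 in fasted mice (adjusted p = 0.00821). When only the fasted groups entered the fit, the fasted call was lost (0.40, adjusted p = 0.0723). The interaction was -0.067 ± 0.15 (adjusted p = 0.803, 95% interval -0.36 to 0.23). Sgce, a paternally expressed neighbour of Asb4 that encodes epsilon-sarcoglycan, was also higher in fed cKO than in fed WT, at 91.7 ± 5.43 against 69.6 ± 3.26 CPM (log2 fold change 0.40 ± 0.064, adjusted p = 9.20e-05). It was the 1 gene called higher there among 7 tested genes of the domain beside Asb4, whose median was 0.088. In fasted cKO both Asb4 and the Pomc neuron markers were lower in replicates 1 and 2 than in replicates 3 to 5. The 5 Pomc neuron markers summed to 470.4 and 567 CPM in replicates 1 and 2 and to 857, 1126 and 966 CPM in replicates 3 to 5. In fasted WT Asb4 split in the same way, but the Pomc neuron markers did not. There they summed to 460 and 474 CPM in replicates 1 and 2 and to 478, 508 and 409 CPM in replicates 3 to 5. In fed mice the sum of these markers was 379 to 514 CPM in cKO and 339 to 448 CPM in WT. The part of Pomc neurons in the Asb4 values was not tested.

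Nnat (chr2:157560078-157562522, plus strand) encodes neuronatin, a small membrane proteolipid. It had 141, 129, 199, 121 and 177 CPM in fasted cKO, and 158, 142, 159, 156 and 173 CPM in fed cKO. In fasted WT it had 160, 118, 99.3, 113 and 79.1 CPM, and in fed WT 72.6, 109, 75.2, 150.2 and 83.6 CPM. The fed groups overlapped only through replicate 4 of WT, which reached the cKO range. In fed mice Nnat was 0.69 ± 0.17 higher in cKO on the log2 scale, 1.61-fold (adjusted p = 0.00729), the largest genotype difference among the called members. In fasted mice it was 0.43 ± 0.17 higher and missed the threshold (adjusted p = 0.0684). That value was -0.029 (adjusted p = 0.944) with fasted replicates 1 and 2 only and 0.76 (adjusted p = 0.000511) with replicates 3 to 5 only. Fasting changed Nnat in neither genotype past the threshold, with -0.040 ± 0.17 in cKO (adjusted p = 0.860) and 0.21 ± 0.17 in WT (adjusted p = 0.276). The WT value rested on single libraries, being 0.42 (adjusted p = 0.0209, called) without fed replicate 4 and 0.059 without fasted replicate 1. It was 0.49 (adjusted p = 0.00593, called) with fasted replicates 1 and 2 only.

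**Figure D4:**
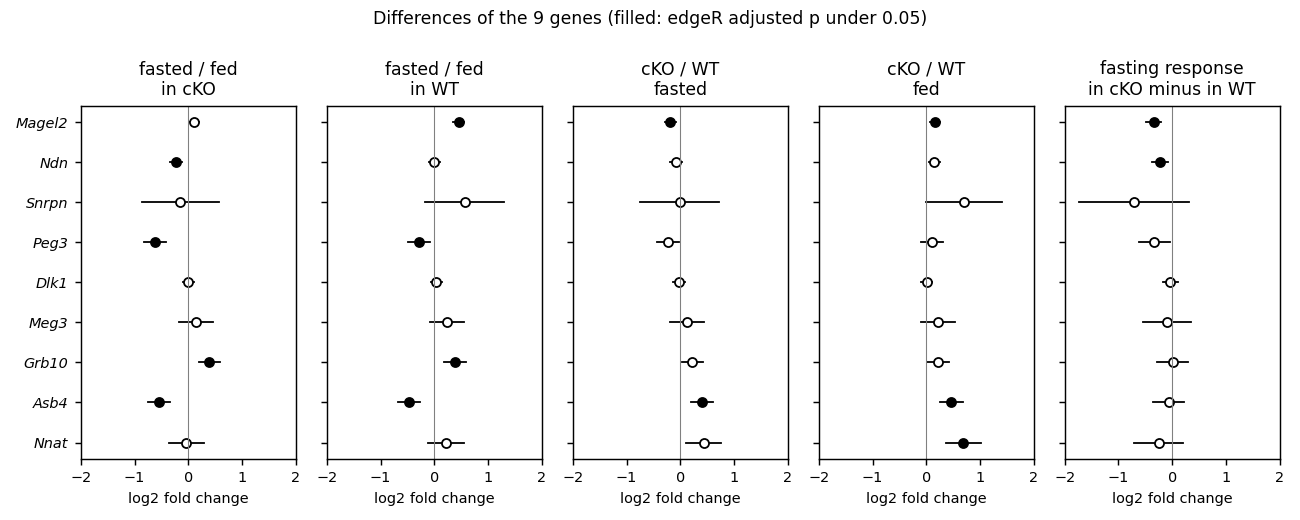
Log2 fold changes of the 9 genes in the 5 comparisons, with 95% intervals from edgeR. Filled points have an adjusted p under 0.05, positive values are higher in fasted mice or in cKO, and the last panel is the response in cKO minus that in WT. Asb4 is filled below 0 in both fasting panels and above 0 in both genotype panels, and Magel2 and Ndn are filled in the last panel.

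Counted over the list, fasting in cKO raised 1 member and lowered 3 of the 9, against 26% of all tested genes that rose and 27% that fell, together 53.1%. In WT it raised 2 members and lowered 2, against 29.6% and 31.3% of all tested genes, or 60.9% in either direction. The median log2 fold change of the members was -0.040 in cKO and 0.21 in WT, against -0.033 and -0.032 over all tested genes. These shares are close to or below the background. In cKO the fasted and fed ranges were apart for 2 members that were higher when fasted and 3 that were lower, against 20% and 19.6% of all genes, and in WT for 2 and 1 members, against 22.5% and 22.6%.

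Between genotypes the fed mice gave 3 members that were higher in cKO (Nnat, Asb4 and Magel2), or 2 without a filter on low counts and in 9 of 10 leave-outs, where Magel2 was lost. This stood against 5.87% of tested genes, and 9.68% of them differed in either direction. No member was lower by edgeR, at unadjusted p under 0.05 or by DESeq2, since all 9 log2 fold changes were positive, with a median of 0.22 against 0.0081 over all genes, and 3.81% of all genes were lower. The fed ranges were apart for 4 members, all higher in cKO, against 8.19% of genes that were higher without overlap and 6.28% that were lower. Fitted on the fed libraries alone, 7 members passed as higher, while the calls over all genes also went up, to 2952, against 1281 in the fit of all 20 libraries. Over all genes 777 were called higher and 504 lower, and 670 higher and 750 lower with GC and length offsets. In fasted mice 1 member was higher (Asb4) and 1 lower (Magel2), against 11.5% and 8.84% of all genes, together 20.3%. Over all genes these were 1517 higher and 1170 lower, and 1232 higher and 1575 lower with upper-quartile scaling. The range of 1 member was apart, Magel2 on the lower side, against 3.91% of all genes on that side and 5.05% on the higher side. The interaction was called for 2 members (Magel2 and Ndn), both more negative in cKO, against 8.44% of genes with a negative and 8.87% with a positive interaction, together 17.3%. No member had a positive one by edgeR, at unadjusted p under 0.05 or by DESeq2.

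Other imprinted genes were described from a list of 73 names, of which 71 were in the table and 53 were tested. With fasting in cKO 14 rose, 12 fell and 27 were not called, against 26% of all tested genes that rose and 27% that fell. In WT 23 rose, 10 fell and 20 were not called, against 29.6% and 31.3% of all tested genes. Their median log2 fold change was -0.017 in cKO and 0.0080 in WT. Airn, the paternal noncoding RNA of the Igf2r domain, rose by 2.05 ± 0.20 in cKO (adjusted p = 1.41e-09) and by 2.45 ± 0.20 in WT (adjusted p = 3.28e-11). H13, which encodes a signal peptide peptidase, rose by 0.49 ± 0.074 in cKO and 0.67 ± 0.074 in WT. Herc3, a HECT ubiquitin ligase gene, fell by 0.91 ± 0.098 in cKO and 0.98 ± 0.099 in WT, with adjusted p of 1.05e-08 and 1.65e-09. Copg2, a coatomer subunit gene, fell by 0.64 ± 0.082 in cKO and 0.74 ± 0.082 in WT, and 17.8% of its exon bases overlap Mest on the opposite strand. Snhg14, the long paternal transcript that runs from Snrpn into the antisense of Ube3a, rose with fasting in WT by 0.88 ± 0.14 (adjusted p = 3.35e-06). Its means in cKO went the same way, with 29.3 ± 5.77 CPM in fasted and 21.8 ± 2.78 CPM in fed mice (SD, n = 5 each). Calcr, the calcitonin receptor gene of the Asb4 domain, fell with fasting in cKO by 0.50 ± 0.083 (adjusted p = 9.99e-06). The Calcr means in WT also went down, with 180.5 ± 30.5 CPM in fasted and 231 ± 19.65 CPM in fed mice.

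Between genotypes, 6 of the 53 were higher and 1 lower in fed cKO, with a median of 0.12, against 5.87% and 3.81% of all tested genes. In fasted mice 5 were higher and 3 lower in cKO, with a median of -0.038, against 11.5% and 8.84% of all genes. The count of 6 fell to 3 with GC and length offsets and reached 14 when the fed libraries alone were fitted. Klf14, a maternally expressed gene for a Krüppel-like factor, was lower in cKO by 1.56 ± 0.25 in fed (adjusted p = 7.13e-05) and by 1.09 ± 0.26 in fasted mice (adjusted p = 0.00394). Cobl, an actin nucleator gene beside Grb10, was 0.65 ± 0.11 higher in fasted cKO than in fasted WT (adjusted p = 0.000130), at 46.6 ± 6.80 against 29.7 ± 5.16 CPM. The interaction was positive for 1 gene and negative for 7, against 8.87% and 8.44% of all genes, among them Usp29 at -0.32 ± 0.096 (adjusted p = 0.0219) and Inpp5f, a phosphoinositide phosphatase gene, at -0.53 ± 0.11 (adjusted p = 0.00134). The Usp29 value was -0.11 (adjusted p = 0.495) with fasted replicates 1 and 2 only.

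Of 14 named partners of Magel2 and necdin, 9 were in the table and 8 were tested. The 5 names of the WASH complex, Washc1 to Washc5, were not in the table, so that complex was not examined. With fasting in cKO 4 rose and 4 were not called, against 53.1% of all tested genes that were called, and in WT 3 rose and 1 fell, against 60.9%. Nucb2, the precursor gene of nesfatin-1 and a necdin-binding protein, rose by 1.43 ± 0.078 in cKO (adjusted p = 2.21e-14) and by 1.66 ± 0.078 in WT (adjusted p = 3.47e-16). Vps35, the core of retromer, fell in WT by 0.44 ± 0.059 (adjusted p = 2.70e-07), and its interaction was 0.41 ± 0.083 (adjusted p = 0.000916), opposite in sign to that of Magel2. Trim27, the ligase that Magel2 enhances, was 0.34 ± 0.10 lower in fed cKO than in fed WT (adjusted p = 0.0374) and 0.35 ± 0.11 higher in fasted cKO than in fasted WT (adjusted p = 0.0222). Its interaction of 0.68 ± 0.15 (adjusted p = 0.00197) also had the opposite sign to that of Magel2, and the fed and fasted calls were each lost under some alternatives, 7 of 18 in fed and 5 of 20 in fasted mice.

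A list of 20 genes for the upkeep of imprints gave 16 tested genes, of which 3 rose and 4 fell with fasting in cKO and 6 rose and 6 fell in WT, against 53.1% of all tested genes called in cKO and 60.9% in WT. Zfp57, the zinc finger protein that guards imprints in the embryo, rose by 1.36 ± 0.15 in cKO (adjusted p = 1.94e-08) and by 1.06 ± 0.15 in WT (adjusted p = 8.16e-07). Tet2, an enzyme that oxidises methylcytosine, rose by 0.63 ± 0.10 in cKO and by 1.06 ± 0.10 in WT. Dnmt1, the maintenance DNA methyltransferase, fell in WT by 1.09 ± 0.10 (adjusted p = 3.55e-10), with an interaction of 0.69 ± 0.14 (adjusted p = 0.00111). In fasted mice 2 were higher and 2 lower in cKO, against 20.3% of all genes called, and in fed mice 1 was higher and 15 were not called, against 9.68%.

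Partners of Grb10, Asb4 and Dlk1 made a list of 15, of which 13 were in the table and 12 were tested. The names Elob and Eloc, subunits of the Asb4 ligase, were not in the table. With fasting 5 rose and 3 fell in cKO, and 4 rose and 3 fell in WT, against the same 53.1% and 60.9% of all genes. Rnf7, the RING subunit that pairs with cullin 5, rose by 0.66 ± 0.047 in cKO (adjusted p = 3.92e-12) and by 0.89 ± 0.047 in WT (adjusted p = 3.68e-15), in both opposite to Asb4. Irs2, an insulin receptor substrate, fell with fasting in cKO by 0.70 ± 0.12 (adjusted p = 1.72e-05) and was 0.54 ± 0.12 higher in fed cKO than in fed WT (adjusted p = 0.00316). Igf1r, the IGF1 receptor that Grb10 binds, rose with fasting in WT by 2.21 ± 0.30 (adjusted p = 3.21e-07). Notch1, a receptor that Dlk1 can restrain, rose by 1.38 ± 0.24 in cKO and by 2.05 ± 0.23 in WT, and 9.76% of its exon bases are shared with other genes.

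The genes most like each member were found by the root mean square difference of log2 CPM, centred per gene, over the 20 libraries among 9971 genes. The MAGE-family gene Maged1 was among the 3 genes most like Peg3 (difference 0.0957), against a spread of Peg3 itself of 0.306. Zcchc18 was nearest to Ndn (0.0679, against a spread of Ndn itself of 0.116) and Paip2 to Magel2 (0.0739 against 0.169). Smim11 was nearest to Grb10 (0.0924 against 0.273) and Chn1 to Dlk1 (0.0653 against 0.0687). For Dlk1 the difference was nearly as large as its own spread, so this nearness says little about a shared pattern. Ythdc2 was nearest to Meg3 (0.117 against 0.323) and Ncald, a neuronal calcium sensor gene, to Asb4 (0.138 against 0.391). Nnat had no gene closer than Hint3 (0.267 against 0.425), and Snrpn none closer than Abl1 (0.384 against 0.523). The libraries share their depth and the fasted split described above, so this likeness describes these 20 libraries only.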

How the data were processed

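The raw counts per gene name were deposited by the authors for all 20 libraries, and they are the values used here. A second table deposited by the authors holds a signal that is a library's counts over its size factor (relative deviation at most 6.29e-10), and it was used for this check only. Per the submitters' processing notes, Trimmomatic 0.36, HISAT2 2.1.0, featureCounts of Subread 1.6.2 and DESeq2 1.20.0 were used with GRCm38. Which annotation and strand option featureCounts had is not given in the sources used here. Per the labels' protocols, cDNA was amplified for 15 cycles without molecular identifiers, so floors and intervals of counts cover counting error only.

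CPM was computed with TMM scaling, and 3 counts correspond to 0.221 to 0.353 CPM. edgeR 4.0.16 in R 4.3.3 (filterByExpr, minimum count 10, minimum total 15) fitted 4 group means over all 20 libraries. Its quasi-likelihood test gave 5 comparisons, with Benjamini-Hochberg adjustment over 13237 genes and a threshold of 0.05. The 95% intervals of log2 fold changes are normal intervals from the SE. The code was tested on simulated data. GENCODE M21 gave exon lengths and overlaps for 22063 names (95.4%). Alternatives were other scalings and filters, DESeq2 1.42.0, GC and length offsets, only the groups compared, a replicate block, subsets of fasted replicates and the leaving out of each library. The members, the 4 gene lists and the subsets of fasted replicates were chosen with earlier results of these data known. All 9 members are named, and of each list up to 4 called genes with the smallest p per comparison, up to 8 for other imprinted genes. For those list genes the alternatives were chosen after seeing the data. Same-numbered libraries of different groups correlated weakly at most, at -0.045 to 0.131, with 2 of 20 over 0.1. Both of these lay between fasted cKO and fasted WT, where the correlations ran from 0.0221 to 0.131. In the other comparisons they ran from -0.045 to 0.0368. No pair of replicates agreed within sampling noise (lowest chi-square per degree of freedom 3.36). One of the genes most like a member is not reported here.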

Additional observations from a re-analysis of the deposited data

Results flagged for a closer look

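The response of Magel2 to fasting differed between the genotypes. The response in cKO minus that in WT was -0.3481 on the log2 scale (edgeR adjusted p = 0.0012), with 0.11 in cKO and 0.45 in WT.

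Ndn, its neighbour, differed in the same direction, by -0.2271 (edgeR adjusted p = 0.0407), with -0.23 in cKO and -0.0023 in WT.

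In fed cKO, Dlk1 had 533.6 CPM in replicate 2, below the others of its group at 560.3 to 568.8 CPM (group median 563.4), a gap large for a group of 5. It was the only one of 36 combinations of gene and group that stood out in this way, and chance gives about 1 in 20.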

How the results depend on the processing

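Of the called log2 fold changes of the 9 genes, 146 of 170 leave-outs of 1 library kept the call and 24 lost it, all with the same sign. The numbers of called genes moved as follows. With fasting in WT, 4 members rose with GC and length offsets and with fasted replicates 1 and 2 only, and 1 fell with GC and length offsets and with only the compared groups in the fit, against 1 to 2 over the leave-outs. There 3 fell with replicates 1 and 2 only (Ndn, Peg3 and Asb4), and the 2 with replicates 3 to 5 only were Asb4 and Meg3. With fasting in cKO, 2 rose with DESeq2 size factors, with the DESeq2 Wald test and with fasted replicates 1 and 2 only, and 4 rose with GC and length offsets. In fed cKO against WT, 7 were higher with only the compared groups in the fit and 2 without a filter and in 9 of 10 leave-outs. In fasted cKO against WT, 2 were higher without a filter, with GC and length offsets and with replicates 1 and 2 only, 0 with only the compared groups, 4 with replicates 3 to 5 only, and 1 to 3 over the leave-outs. There 0 were lower with only the compared groups and with replicates 1 and 2 only, 2 with replicates 3 to 5 only, and 1 to 2 over the leave-outs. A negative interaction was called for 1 without a filter, for 4 with replicates 1 and 2 only and for 1 to 2 over the leave-outs. The cause was not tested.

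Signs turned only for values that were not called with all libraries. For fasting in WT, Ndn gave 0.017 with DESeq2 size factors and with the DESeq2 Wald test, 0.00041 with upper-quartile scaling, 0.011 with only the compared groups, 0.066 with fasted replicates 3 to 5 only and -0.044 to 0.027 over the leave-outs. With replicates 3 to 5 only, Meg3 gave -0.22 and Nnat -0.0090. For fasting in cKO, Dlk1 gave 0.015 with DESeq2 size factors and with the Wald test, 0.27 with GC and length offsets, 0.0011 with only the compared groups, 0.072 with replicates 1 and 2 only and -0.032 to 0.033 over the leave-outs. Meg3 gave -0.037 with replicates 3 to 5 only, and Nnat gave 0.15 with GC and length offsets, 0.073 with replicates 3 to 5 only and -0.15 to 0.036 over the leave-outs, where Snrpn ran from -0.33 to 0.14. In fed cKO against WT, Dlk1 reached -0.0067 in a leave-out. In fasted cKO against WT, replicates 1 and 2 only gave 0.21 for Peg3, 0.012 for Dlk1, -0.12 for Meg3 and -0.029 for Nnat, and GC and length offsets gave 0.039 for Dlk1. The leave-outs ran from -0.19 to 0.10 for Snrpn, -0.059 to 0.0095 for Dlk1 and -0.0095 to 0.33 for Meg3. For the interaction, replicates 1 and 2 only gave 0.10 for Peg3, 0.0075 for Dlk1 and -0.021 for Grb10. Replicates 3 to 5 only gave 0.19 for Meg3 and 0.082 for Nnat, GC and length offsets 0.027 for Dlk1, and upper-quartile scaling -0.035 for Grb10. The leave-outs ran from -0.068 to 0.0010 for Dlk1, -0.23 to 0.11 for Meg3, -0.072 to 0.089 for Grb10 and -0.14 to 0.019 for Asb4.

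The replicate block changed 2 of 45 calls, both in fed cKO against WT, where Magel2 was lost (adjusted p = 0.0559) and Ndn gained (0.0375). Over all genes, 1281 were called in fed cKO against WT and 2952 with only those groups in the fit, and 2687 in fasted cKO against WT, against 1352 with only those groups and 1682 with replicates 1 and 2. Group mean levels moved by -0.57% to 0.68% with DESeq2 size factors and by -8.97% to 9.41% with library totals alone. GC content and length were known for 12713 of 13237 tested genes. At 7 to 43 counts per library, the log2 fold changes of Snrpn had SEs of 0.36 to 0.52, above those of the other 8 genes, of at most 0.24.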

Other observations

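Among genes of imprint upkeep, Smchd1, a chromatin protein that keeps some imprinted clusters silent, was higher in fasted cKO than in fasted WT, at 60.6 ± 11.2 against 42.6 ± 6.14 CPM (SD, n = 5 each, edgeR adjusted p = 0.00125). Dnmt1 was likewise higher there, at 34.7 ± 3.07 against 24.2 ± 3.66 CPM (adjusted p = 0.000925). Tet1, which oxidises methylcytosine, fell with fasting in cKO by 1.55 ± 0.24 on the log2 scale (adjusted p = 4.70e-06). Begain, an imprinted neighbour of Dlk1, fell with fasting in cKO by 0.54 ± 0.089 (adjusted p = 1.09e-05), but by 0.11 with GC and length offsets (adjusted p = 0.285). Its means in WT also went down, with 32.55 ± 2.61 CPM in fasted and 46.5 ± 2.06 CPM in fed mice.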
